A study of Mus musculus with 9 samples.

Results

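The myosin heavy and light chains build the motor of the thick filament of striated muscle. A myosin motor holds heavy chains, which split ATP and pull on actin, and each heavy chain carries an essential and a regulatory light chain on its lever arm. In the heart, *Myh6* and *Myh7* encode the alpha and beta heavy chains, whose balance differs between chambers, stages and species, and the light chains come in forms typical of atria or ventricles. The genes described here were 8 of the 14011 genes measured, taken by name with earlier results of these data known. They were the heavy chains *Myh6*, *Myh7* and *Myh7b*, the essential light chains *Myl1*, *Myl3* and *Myl4*, and the regulatory light chains *Myl2* and *Myl7*. All 8 were in the table of expression values, with at least 130 reads in every library.

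The study deleted *Ctcf*, which encodes the DNA-binding protein CTCF that shapes chromatin loops, in the embryonic mouse heart, and measured polyA RNA by RNA-seq at E10.5. Homozygotes (*Ctcf* fl/fl; *Nkx2.5-Cre*/+) carried the driver and a pair of floxed alleles, and heterozygotes (*Ctcf* fl/+; *Nkx2.5-Cre*/+) carried the driver and a single floxed allele. Controls carried floxed *Ctcf* without Cre, given as *Ctcf* fl/fl in the deposited labels and as *Ctcf* fl/+ in the methods of the study. Each genotype had 3 libraries, each from a pool of 6 hearts of mixed strain, so that p-values measure the spread between pools. *Nkx2.5-Cre* is active in cardiac progenitors and cardiomyocytes and not in every cell of the heart, and it was absent from controls, so the driver and the deletion cannot be told apart in a comparison with controls. Values are reads scaled to library size by the authors, and 1 read was worth 0.0901 to 0.231 units in libraries of 4294537 to 11629365 reads. In whole hearts, fewer cells of a type and less RNA per cell cannot be told apart.

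*Ctcf* itself had values of 121, 122 and 122 in controls, 101, 94.2 and 97.0 in heterozygotes and 79.6, 80.0 and 84.7 in homozygotes. The 3 groups did not overlap, and the homozygote mean was 67.0% of the control mean. The 7 cardiomyocyte markers (*Nkx2-5*, *Ryr2*, *Tnnc1*, *Tnnt2*, *Ttn*, *Actn2* and *Actc1*) had 8 entries in the table, *Tnnc1* having 2. Of these entries 3 fell and 0 rose in homozygotes against controls, namely *Nkx2-5* (log2 fold change -0.95), *Ryr2* (-1.13) and *Actn2* (-0.35). The same 3 genes fell against heterozygotes. Of all genes, 8.03% were called lower against controls and 6.7% against heterozygotes. *Nkx2-5* was also lower in every heterozygote than in any control, at -0.40, and was not called there (limma adjusted p = 0.0974). *Ttn* had -0.63 against controls and was not called (limma adjusted p = 0.112), and *Tnnt2*, *Actc1* and *Tnnc1* had 0.04 to 0.15. Against heterozygotes *Ttn* had -0.60 (limma adjusted p = 0.137) and *Tnnt2*, *Actc1* and *Tnnc1* had -0.13 to -0.07, none of them called. The median of the 8 entries was -0.16 against controls and -0.32 against heterozygotes, and 0.16 in heterozygotes against controls. The summed value of the 8 entries was 9338 to 10372 in controls, 10027 to 11509 in heterozygotes and 9036 to 10547 in homozygotes. Most of each sum was *Actc1*, at 5429 to 6613 over the 9 libraries, while *Nkx2-5* had 36.8 to 81.2. Of the 6 skeletal muscle markers looked for (*Myod1*, *Myf5*, *Myf6*, *Myog*, *Pax3* and *Pax7*), 0 were in the table.

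*Myh6* and *Myh7* lie head to tail on chromosome 14 of NCBIM37, *Myh7* at chr14:55589525-55613471 and *Myh6* at chr14:55560758-55585764, both on the minus strand and 3760 bases apart. Their coding sequences were 91.8% identical over 5802 aligned bases, with a longest identical run of 245 bases, whereas *Myh7b* shared 73.6% with *Myh6* and 73.8% with *Myh7*. Of the 50-base windows in its longest coding transcript, 22.8% of those of *Myh6* were found letter for letter in *Myh7*. None of the windows of the other 6 chains at 36, 50 or 75 bases was found in the transcript of another gene. The read length is not given in the sources used here, and the values of *Myh6* and *Myh7* therefore depend on how shared reads were divided. The following 90-base stretches show why the pair is hard to part in some exons and easy in others. The first pair is one of the stretches with the fewest differences, in exon 14 of 39 of *Myh6* (chr14:55578719-55578808) and exon 16 of 41 of *Myh7* (chr14:55607223-55607312), and has 0 differences. The second pair is the stretch with the most, 30 differences marked in capitals, in exon 25 of *Myh6* (chr14:55571084-55571173) and exon 27 of *Myh7* (chr14:55599159-55599248).
Myh6, fewest differences: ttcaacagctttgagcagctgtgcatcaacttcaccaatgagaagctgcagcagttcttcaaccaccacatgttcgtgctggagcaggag
Myh7, fewest differences: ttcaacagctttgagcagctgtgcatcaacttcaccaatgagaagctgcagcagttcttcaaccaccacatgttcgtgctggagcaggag
*Myh6*, most differences: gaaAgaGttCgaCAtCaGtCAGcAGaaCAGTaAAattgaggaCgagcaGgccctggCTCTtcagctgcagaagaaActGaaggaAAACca
*Myh7*, most differences: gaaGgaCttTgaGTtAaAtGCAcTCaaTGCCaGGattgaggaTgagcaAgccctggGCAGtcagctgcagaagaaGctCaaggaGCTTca

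The other members are scattered over the genome, with *Myh7b* at chr2:155436948-155460043, *Myl1* at chr1:66970869-66991978, *Myl2* at chr5:122550960-122563481 and *Myl3* at chr9:110666150-110672308. *Myl4* (chr11:104411977-104457067) and *Myl7* (chr11:5796640-5798785) share chromosome 11 but are not neighbors. The light chains resembled each other less than the pair of cardiac heavy chains did, with 78.1% coding identity between *Myl3* and *Myl4* and 66.7% between *Myl2* and *Myl7*. Exons of *Myh7b*, *Myl2* and *Myl4* overlap those of a gene on the opposite strand by 37, 60 and 3 bases, and whether the counting used strand is not given in the sources used here.

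Per kilobase of the longest coding transcript, the mean level over the 9 libraries was 2956 ± 167 (SD) for *Myl7*, 2647 ± 249 for *Myl2*, 2216 ± 168 for *Myl4* and 1245 ± 106 for *Myl3*. *Myh7* and *Myh6* followed at 589 ± 139 and 517 ± 115 per kilobase, *Myl1* had 216 ± 17.9 and *Myh7b* 5.91 ± 0.802. The ranges of *Myl7* and *Myl2*, of *Myl2* and *Myl4*, and of *Myh7* and *Myh6* overlapped, and the other neighbors in this order were apart in all 9 libraries. Dividing by the union of all annotated exons instead placed *Myl4* at 451 per kilobase, within the range of both cardiac heavy chains, and put *Myh6* above *Myh7*. It also lowered *Myl2* to 1207 per kilobase, apart from *Myl7* in all 9 libraries. The levels of *Myl2* and *Myl4* and the order of *Myh6* and *Myh7* thus depended on the transcript models used. Together the 8 genes made up 1.18% to 1.72% of the summed values of a library.

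**Figure D1:**
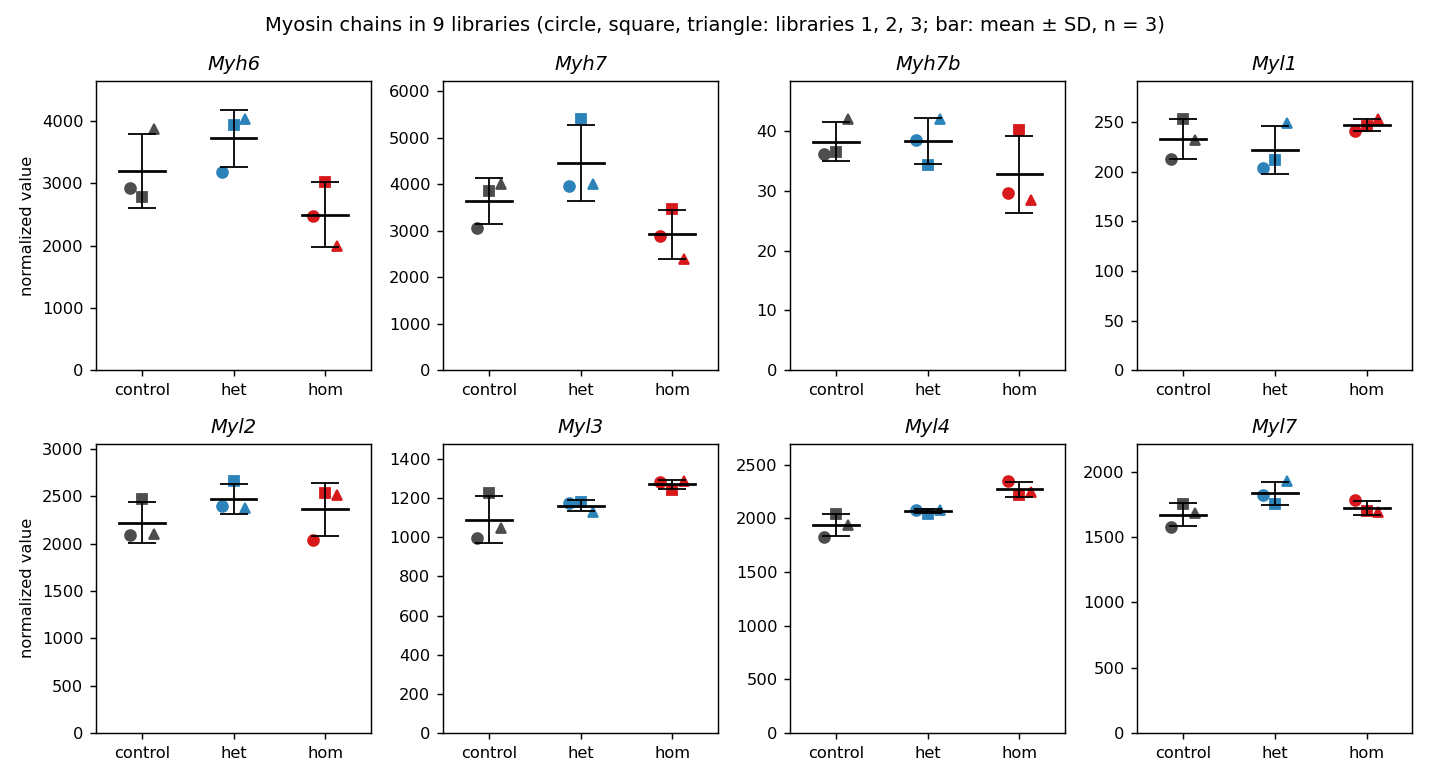
Normalized values of the 8 myosin chains in each of the 9 libraries, with axes starting at 0, symbols for libraries 1, 2 and 3 and bars for mean ± SD (n = 3 pools). Myl3 and Myl4 sat higher in all 3 homozygous libraries than in any control, and Myh6 and Myh7 lower in all 3 homozygous libraries than in any heterozygote.

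The homozygotes were compared with controls and with heterozygotes to ask what loss of CTCF did to these genes, and the homozygous libraries are shared by these comparisons. Among the heavy chains, *Myh6* and *Myh7* fell in homozygotes relative to heterozygotes, to 0.666 and 0.655 of the heterozygote level, whereas neither passed the test against controls. Among the light chains, *Myl4*, the essential chain typical of atrial and embryonic muscle, rose 1.17-fold in homozygotes over controls, and no other light chain passed the limma test of the values as deposited in either comparison. *Myl3* was called against controls by DESeq2 and voom, and *Myl7* against heterozygotes with the length trend removed, as given with these genes. The *Myl4* call held in 10 of 21 alternatives and was lost in 11. No member was called between heterozygotes and controls. Counts of members called were 1 of 8 against controls, where 15.2% of all genes were called (7.19% higher and 8.03% lower), and 2 of 8 against heterozygotes, where 13.6% were called (6.87% higher and 6.7% lower).

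*Myh6*, the alpha heavy chain with the faster ATPase, had values of 2923, 2788 and 3878 in controls, 3192, 3939 and 4040 in heterozygotes and 2474, 3030 and 2000 in homozygotes. All homozygous libraries were below all heterozygous ones, while homozygote library 2 lay above the lower pair of controls. The log2 fold change was -0.59 (SE 0.15) against heterozygotes, with a limma adjusted p of 0.0222. Against controls it was -0.36, with a 95% interval of -0.69 to -0.03 and a limma adjusted p of 0.134.

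*Myh7*, the slower beta heavy chain, showed 3068, 3844 and 3996 in controls, 3960, 5408 and 3999 in heterozygotes and 2892, 3468 and 2398 in homozygotes. The homozygotes again lay below every heterozygote and overlapped the controls, of which library 1 was the lowest. Its log2 fold change was -0.61 (SE 0.15) against heterozygotes, with a limma adjusted p of 0.0172. It was -0.32 against controls, with a limma adjusted p of 0.168. Both differences from heterozygotes rested on few pools. Without homozygote replicate 3, the pool with the lowest values of both genes, *Myh6* had a log2 fold change of -0.44 (adjusted p = 0.0913) and *Myh7* of -0.48 (adjusted p = 0.0711), and without heterozygote replicate 2, with the highest *Myh7*, they had -0.54 (0.0728) and -0.46 (0.0695). Leaving out heterozygote replicate 3 or homozygote replicate 1 also left *Myh6* uncalled, with adjusted p-values of 0.0882 and 0.0511, while *Myh7* stayed called. With all 9 libraries but without the limma trend, both calls were lost (adjusted p = 0.0898 for *Myh6* and 0.0758 for *Myh7*).

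*Myh7b*, an ancient heavy chain gene expressed at low level in heart and slow muscle, had 36.1, 36.5 and 42.0 in controls, 38.5, 34.4 and 42.1 in heterozygotes and 29.6, 40.2 and 28.5 in homozygotes. The homozygous libraries 1 and 3 were the lowest of all 9, whereas library 2 was within the range of the other genotypes. Its change was -0.23 on the log2 scale in both comparisons, with limma adjusted p-values of 0.231 and 0.239. Without homozygote replicate 2 it was -0.39 in both, with adjusted p-values of 0.0318 and 0.0346, and *Myh6* then also passed the test against controls at -0.51 (adjusted p = 0.0471). Without homozygote replicate 3, *Myh7b* had -0.14 in both comparisons (adjusted p = 0.544 and 0.567) and *Myh6* had -0.21 against controls (adjusted p = 0.413), and without control replicate 3 they had -0.16 (0.533) and -0.21 (0.444) against controls. *Mir208a*, *Mir208b* and *Mir499* lie within *Myh6*, *Myh7* and *Myh7b* and were not analysed here.

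*Myl4* had 1828, 2035 and 1941 in controls, 2073, 2044 and 2081 in heterozygotes and 2343, 2220 and 2241 in homozygotes. The 3 genotypes did not overlap, with heterozygotes in the middle. Against controls the log2 fold change in homozygotes was 0.23 (SE 0.07), with a limma adjusted p of 0.0323. Against heterozygotes it was 0.13, with a 95% interval of -0.01 to 0.28 and a limma adjusted p of 0.209. With the coding length trend removed, the log2 fold change against controls was 0.07 (adjusted p = 0.541), and the call was also lost with only the 2 groups compared (0.0783), with quantile normalization (0.136), without the limma trend (0.0585) and with the replicate block (0.081). With one library left out, the rise over controls missed the threshold in 6 of 9 cases. These were without control replicate 1 (log2 fold change 0.19, adjusted p = 0.135), without control replicate 3 (0.0778), without heterozygote replicate 3 (0.0533) and without homozygote replicates 1, 2 and 3 (0.0749, 0.0526 and 0.0597).

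*Myl3*, the essential light chain of ventricular and slow skeletal muscle, had 997, 1224 and 1049 in controls, 1175, 1180 and 1130 in heterozygotes and 1283, 1243 and 1286 in homozygotes. Every homozygous library was above every control and every heterozygote, the nearest control being library 2. The log2 fold change was 0.23 (SE 0.07) against controls and missed the threshold, with a limma adjusted p of 0.0535. It was called by DESeq2 (adjusted p = 0.0189), by voom (0.0345) and with the filter of a value of at least 1 in all 9 libraries (0.0475). Without control replicate 2 it was 0.31, with an adjusted p of 0.00925, and without control replicate 1 it was 0.16 (0.205). It was 0.10 (adjusted p = 0.345) with quantile normalization and 0.07 (0.586) with the coding length trend removed. Against heterozygotes it was 0.13, with a limma adjusted p of 0.278.

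*Myl1*, an essential light chain of fast skeletal muscle that the embryonic heart also expresses, had 213, 253 and 232 in controls, 204, 212 and 249 in heterozygotes and 242, 246 and 253 in homozygotes. The homozygotes lay close together at the top of the range of both other genotypes and overlapped them. The log2 fold change was 0.09 against controls (95% interval -0.08 to 0.26) and 0.16 against heterozygotes (-0.01 to 0.33). The limma adjusted p-values were 0.492 and 0.205.

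*Myl2*, the regulatory light chain typical of ventricle, had 2090, 2470 and 2107 in controls, 2394, 2658 and 2376 in heterozygotes and 2041, 2532 and 2512 in homozygotes. The groups overlapped in every comparison. The log2 fold change in homozygotes was 0.08 against controls (95% interval -0.13 to 0.30) and -0.07 against heterozygotes (-0.28 to 0.14).

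*Myl7*, the regulatory light chain typical of atria and present throughout the early heart, had 1578, 1752 and 1686 in controls, 1821, 1756 and 1927 in heterozygotes and 1784, 1699 and 1691 in homozygotes. Homozygotes overlapped both other genotypes, and all heterozygotes were above all controls. The log2 fold change in homozygotes was 0.05 against controls (95% interval -0.10 to 0.19) and -0.09 against heterozygotes (-0.23 to 0.06). Neither regulatory light chain was called in homozygotes in either comparison as deposited, with limma adjusted p-values of 0.427 to 0.704.

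Between heterozygotes and controls, 0 of 8 members were called by limma, by edgeR and by DESeq2, and 0 had an unadjusted p under 0.05. Of all genes, 0.143% were called in this comparison and 7.37% had an unadjusted p under 0.05. The log2 fold changes were 0.29 for *Myh7* (95% interval -0.04 to 0.61), 0.23 for *Myh6* (-0.10 to 0.56), 0.16 for *Myl2*, 0.13 for *Myl7*, 0.10 for *Myl3* and *Myl4*, 0.002 for *Myh7b* and -0.07 for *Myl1*, with limma adjusted p-values of 0.699 to 0.999. All heterozygotes were above all controls for *Myl4* and *Myl7*, that is for 2 of 8 members, while 14.3% of all genes did not overlap between these groups and 7.41% were higher in this way. In homozygotes against controls 2 of 8 members did not overlap, beside 33.2% of all genes, and against heterozygotes 4 of 8 did not, beside 30.8%. The median log2 fold change of the 8 members in homozygotes was 0.07 against controls, beside -0.001 for all genes, and -0.08 against heterozygotes, beside -0.004. In heterozygotes against controls it was 0.12, beside -0.00002.

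**Figure D2:**
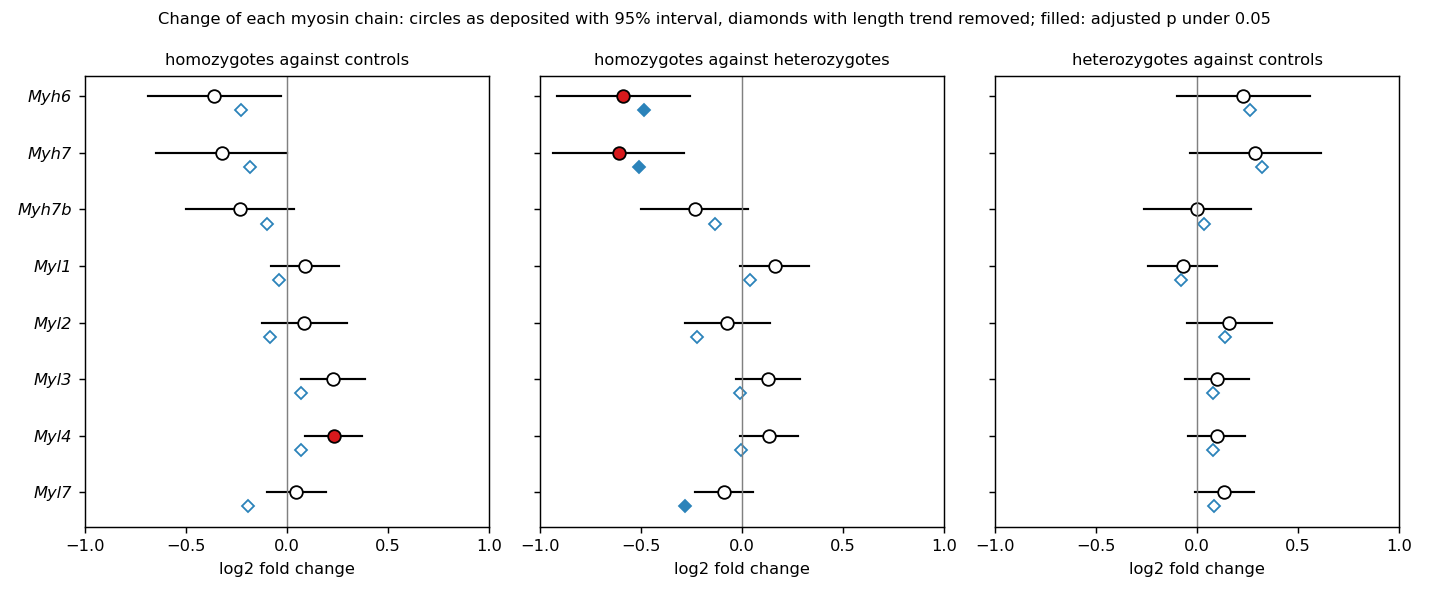
Log2 fold change of each myosin chain in the 3 comparisons, as circles with the 95% interval and as diamonds after the trend with transcript length was removed from each library; filled symbols had a limma adjusted p under 0.05. The filled circles are Myl4 against controls, at 0.23, and Myh6 and Myh7 against heterozygotes, at -0.59 and -0.61.

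Balance within each class of chain was examined as ratios within a library, which do not depend on how libraries were scaled. No test was run on them. The log2 ratio of *Myh6* to *Myh7* per exonic length had a control mean of 0.23 ± 0.24 (SD, n = 3), a heterozygote mean of 0.17 ± 0.24 and a homozygote mean of 0.19 ± 0.03. The difference between homozygotes and heterozygotes was 0.02 beside a pooled SD of 0.20, while both levels were lower in homozygotes. On the same scale, the log2 ratio of *Myl7* to *Myl2* was 1.32 ± 0.09, 1.29 ± 0.15 and 1.28 ± 0.22, and that of *Myl4* to *Myl3* was -0.996 ± 0.09, -0.998 ± 0.05 and -0.993 ± 0.03, in the same order. All 3 ratios overlapped between all genotypes and differed by less than the spread between pools. The choice of length sets their level but not the differences between genotypes. Per longest coding transcript *Myl4* lay above *Myl3*, with log2 ratios of 0.83, 0.83 and 0.84, *Myh6* lay below *Myh7*, with -0.16, -0.22 and -0.19, and the ratio of *Myl7* to *Myl2* was 0.18, 0.16 and 0.14.

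The proportion of light to heavy chains as deposited was higher in every homozygous library than in any other, but not once the trend of each library with coding length was removed. The summed level of the 5 light chains per length of the longest coding transcript exceeded that of the 3 heavy chains 8.39, 8.73 and 6.70 times in controls and 8.07, 6.30 and 7.29 times in heterozygotes. In homozygotes it was 10.7, 9.07 and 13.5 times. Homozygote library 3, the most deeply sequenced, had the highest ratio. The difference in the log2 ratio was 0.47 between homozygotes and controls and 0.61 between homozygotes and heterozygotes, beside a pooled SD of 0.23. It was -0.14 between heterozygotes and controls, where the groups overlapped. With the coding length trend removed, which is described further on, light chains exceeded heavy chains 9.16, 9.07 and 7.72 times in controls, 8.36, 6.58 and 7.72 times in heterozygotes and 9.43, 8.36 and 11.1 times in homozygotes, and the homozygotes overlapped both other genotypes. The differences in the log2 ratio were then 0.15 from controls and 0.35 from heterozygotes. The SD of this ratio was 0.14 in controls, 0.18 in heterozygotes and 0.21 in homozygotes. The overlap with heterozygotes was narrow, homozygote library 2 having 8.356 and heterozygote library 1 having 8.359.

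**Figure D3:**
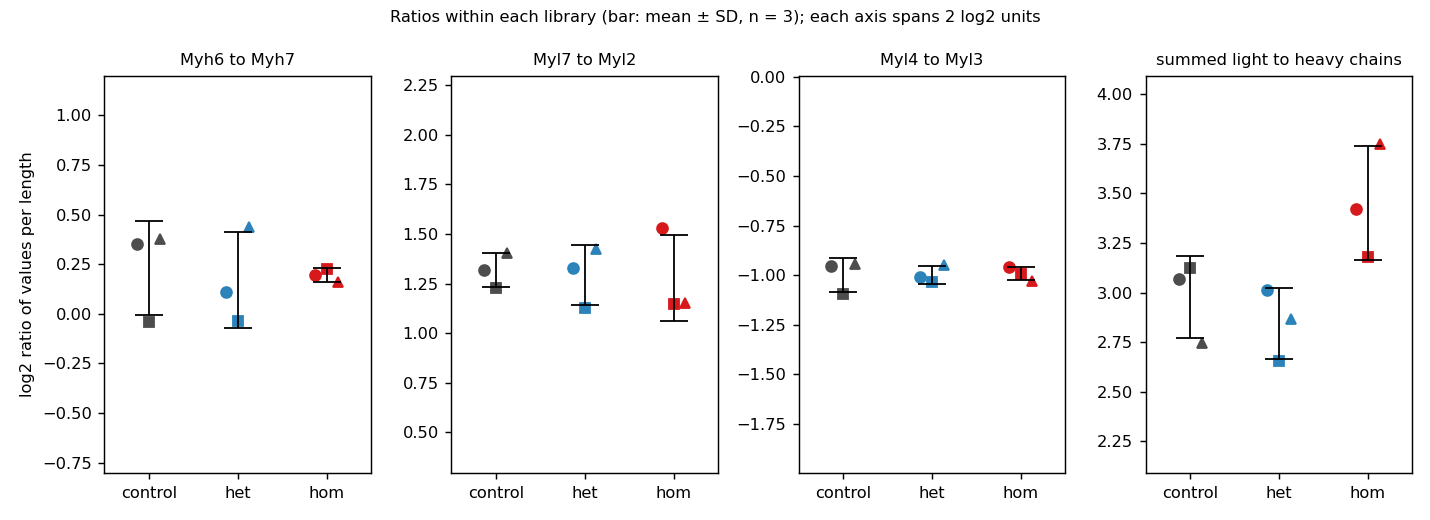
Log2 ratios of values per length within each library, as symbols for libraries 1, 2 and 3 and bars for mean ± SD (n = 3), each axis spanning 2 log2 units; the first 3 ratios used the union of exons as length and the last the longest coding transcript. The ratios of paired chains overlapped between genotypes, and the ratio of light to heavy chains, drawn without removal of the length trend, was higher in all 3 homozygous libraries.

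Heavy and light chain transcripts differ in length, and length itself moved with genotype over the whole table. Over the 13987 genes with an annotated length, log2 values changed per doubling of length by 0.02 to 0.06 in controls, 0.01 to 0.02 in heterozygotes and -0.08 to -0.03 in homozygotes. Homozygote library 3 had the steepest fall, and it also had the lowest values of *Myh6*, *Myh7* and *Myh7b*. Among the 699 genes with a longest coding transcript of 5440 to 6354 bases, the length class of the heavy chains, the median log2 fold change in homozygotes was -0.13 against controls and -0.10 against heterozygotes. Among the 699 genes of 863 to 1179 bases, the class of *Myl1*, *Myl2*, *Myl3* and *Myl4*, it was 0.16 and 0.13. *Myl3* and *Myl4*, at 0.23 against controls, were near the median of their class, and at 0.13 against heterozygotes they were at its median. *Myh6* and *Myh7* were below the median of theirs in both comparisons, at -0.36 and -0.32 against controls, where neither was called, and at -0.59 and -0.61 against heterozygotes.

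After the trend with the length of the longest coding transcript was removed from each library, *Myl4* had a log2 fold change of 0.07 against controls (limma adjusted p = 0.541) and was no longer called. With the union of exons as length, under which *Myl4* counts as a long transcript, it was 0.27 (adjusted p = 0.0194). *Myh6* and *Myh7* stayed called against heterozygotes, at -0.49 (adjusted p = 0.0362) and -0.51 (adjusted p = 0.0334), also with the union of exons (-0.52 for both, with adjusted p-values of 0.0301 and 0.0289). Against controls they had -0.22 (adjusted p = 0.344) and -0.18 (0.462) with the coding length trend removed. *Myl7*, the shortest transcript of the 8 at 590 bases, was then called lower in homozygotes than in heterozygotes, at -0.28 (adjusted p = 0.0176), and with the union of exons at -0.27 (0.0223). The median change in its length class of 82 to 862 bases was 0.21 in that comparison.

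**Figure D4:**
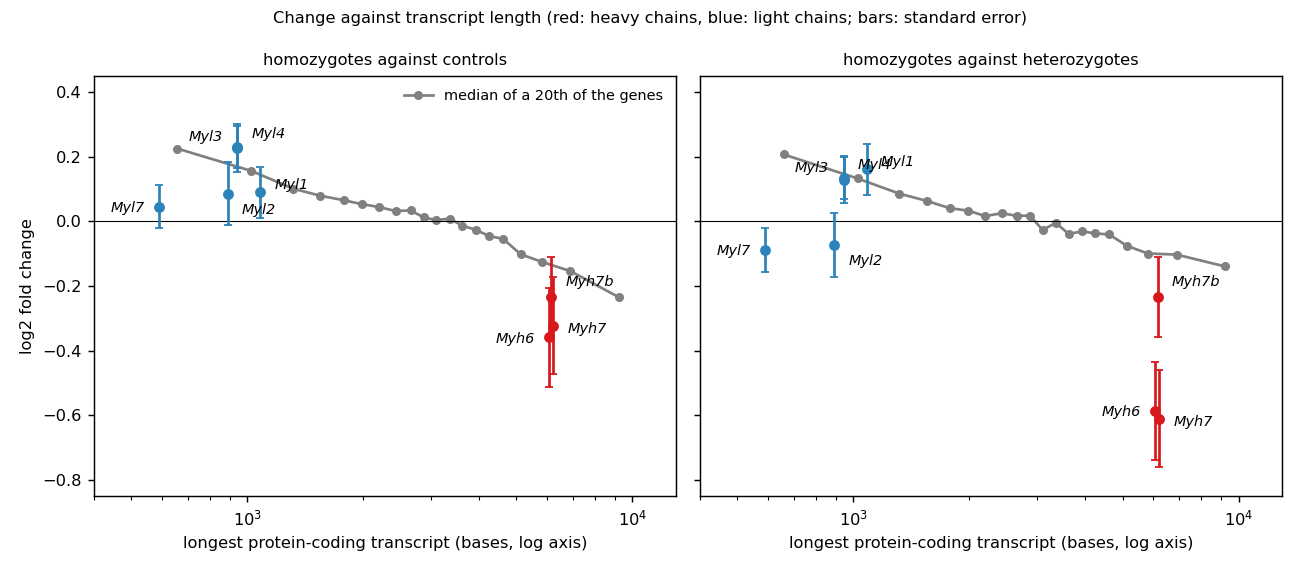
Log2 fold change of the 8 myosin chains (points, bars for the standard error) against the length of the longest coding transcript on a log axis, with gray points for the median of each of 20 length classes of all genes. In homozygotes the medians of classes of short transcripts lay above 0 and those of long ones below. Myh6 and Myh7 against heterozygotes, at -0.59 and -0.61, lay below the -0.10 of their class. The short Myl2 and Myl7 lay below 0 against heterozygotes, at -0.07 and -0.09.

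Erythroid markers also moved with genotype. All 5 of 5 reported here (*Hba-x*, *Hba-a1*, *Hbb-bh1*, *Hbb-y* and *Alas2*) were called higher in homozygotes in both comparisons, and their summed value was 56517 to 74747 in homozygotes, 31608 to 46061 in controls and 25427 to 43021 in heterozygotes, with 0 of them without reads. Homozygote library 3 had the highest sum. The part of red cell RNA in the myosin values was not tested.

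Promoters are shown for the pairs of chains with the most similar values over the 9 libraries, *Myh6* with *Myh7* and *Myl3* with *Myl4*. All 8 members matched an entry of the RefSeq promoter table, which gives 1 start per gene on GRCm38.p6, and the 250 bases before that start were searched on both strands. The TATA box was searched as TATAAA, the E-box as CANNTG and the M-CAT element bound by TEAD factors as CATTCC. The site of GATA factors was searched as AGATAA and a core of the site of CTCF as AGGNGGC. The MEF2 site and the CArG box, which serum response factor binds, were searched by their consensus. Capitals mark matches other than the E-box.
Myh6, chr14:54966608-54966857, minus strand: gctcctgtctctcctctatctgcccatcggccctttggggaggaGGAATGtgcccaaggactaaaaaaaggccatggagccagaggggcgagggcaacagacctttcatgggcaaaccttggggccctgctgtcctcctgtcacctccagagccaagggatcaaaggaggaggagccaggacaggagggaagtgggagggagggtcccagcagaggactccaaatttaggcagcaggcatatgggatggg
Myh7, chr14:54994627-54994876, minus strand: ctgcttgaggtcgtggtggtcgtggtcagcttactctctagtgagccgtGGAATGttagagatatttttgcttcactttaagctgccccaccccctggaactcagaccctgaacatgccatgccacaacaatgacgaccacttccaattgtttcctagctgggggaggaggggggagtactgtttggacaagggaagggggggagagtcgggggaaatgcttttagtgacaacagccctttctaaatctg
Myl3, chr9:110763428-110763677, plus strand: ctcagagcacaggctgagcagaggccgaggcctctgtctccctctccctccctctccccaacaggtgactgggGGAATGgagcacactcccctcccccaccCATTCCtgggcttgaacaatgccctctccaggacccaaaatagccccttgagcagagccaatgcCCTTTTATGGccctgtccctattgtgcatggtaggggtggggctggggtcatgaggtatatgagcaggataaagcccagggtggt
Myl4, chr11:104550413-104550662, plus strand: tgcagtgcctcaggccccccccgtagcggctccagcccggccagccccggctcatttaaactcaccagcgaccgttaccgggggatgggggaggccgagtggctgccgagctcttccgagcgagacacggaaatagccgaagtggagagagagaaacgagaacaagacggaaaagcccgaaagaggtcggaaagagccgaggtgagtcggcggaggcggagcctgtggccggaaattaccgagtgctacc

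*Myh6* and *Myh7* each held a single M-CAT match, at -206 and -201 from the start, and *Myl3* held 2, at -177 and -149, beside a CArG box at -85. *Myl4* held a match to none of the 7 motifs in this window. Of the 27025 promoters of the table, 12.6% held M-CAT, 1.40% a CArG box, 3.01% a MEF2 site, 12.97% the TATA box, 66.0% an E-box and 24.6% the CTCF core. The CTCF core was found in none of the 8 windows. A match is a description of letters, and no binding was measured here.

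Myosins outside the heart set were measured as a background to these genes. Of 9 myosins of skeletal and other striated muscle only *Mylpf*, the regulatory light chain of fast skeletal muscle, was in the table. It had values of 15.0, 17.4 and 17.6 in controls, 21.0, 23.5 and 24.1 in heterozygotes and 34.6, 28.7 and 29.3 in homozygotes. The 3 genotypes did not overlap, and the level was highest in homozygotes. *Mylpf* rose 1.83-fold over controls (log2 fold change 0.87, SE 0.11, limma adjusted p = 0.000207) and 1.34-fold over heterozygotes (0.42, adjusted p = 0.0201), and the difference of 0.45 between heterozygotes and controls had an adjusted p of 0.197. The rise over controls was called in all 21 alternatives (adjusted p 6.2e-07 to 0.00324). That over heterozygotes was called in 17, and was lost without heterozygote replicate 1 (adjusted p = 0.0781), without homozygote replicate 1 (0.0679) and after removal of the length trend of exon unions (0.122) or coding transcripts (0.152).

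Of 9 smooth and non-muscle myosin chains, 8 were measured. In homozygotes against controls 1 rose and 1 fell, and against heterozygotes 2 fell, while 15.2% and 13.6% of all genes were called in these comparisons. *Myh10*, the heavy chain of non-muscle myosin IIB, had 541, 547 and 638 in controls, 598, 614 and 532 in heterozygotes and 474, 488 and 437 in homozygotes. It fell by 0.30 on the log2 scale against controls (limma adjusted p = 0.0192) and by 0.32 against heterozygotes (adjusted p = 0.0164). The light chain *Myl12b* rose by 0.22 against controls (adjusted p = 0.0421), and *Myl9*, a regulatory light chain of smooth muscle, fell by 0.25 against heterozygotes (adjusted p = 0.0324). In the other comparison *Myl12b* had 0.09 (against heterozygotes, adjusted p = 0.429) and *Myl9* had -0.10 (against controls, adjusted p = 0.351). With the coding length trend removed, *Myh10* had -0.12 against controls (adjusted p = 0.296), whereas *Myl9* stayed called against heterozygotes. Single pools decided these calls. *Myh10* was not called against controls without control replicate 3 (adjusted p = 0.0894) or homozygote replicate 3 (0.0758), nor against heterozygotes without heterozygote replicate 1 (0.0575), heterozygote replicate 2 (0.0657) or homozygote replicate 3 (0.0684). *Myl9* lost its call without any of the heterozygotes or without homozygote replicate 2 or 3 (0.0675 to 0.115). *Myl12b* kept its call only without heterozygote replicate 1 or homozygote replicate 1 and otherwise had 0.0513 to 0.154.

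Of 19 partners and regulators of myosin, 15 were measured. In homozygotes 1 rose and 5 fell against controls, where 15.2% of all genes were called and 8.03% were lower. Against heterozygotes 0 rose and 6 fell, where 13.6% of all genes were called and 6.7% were lower. The median log2 fold change of the 15 was -0.07 and -0.19, beside -0.001 and -0.004 for all genes. That of the cardiomyocyte marker entries was lower still, at -0.16 and -0.32. *Unc45b*, a chaperone that folds striated myosin heads, had 256, 285 and 275 in controls, 296, 315 and 315 in heterozygotes and 209, 236 and 191 in homozygotes. Homozygotes were below all other libraries, and the fall was 0.36 on the log2 scale against controls (limma adjusted p = 0.00586) and 0.55 against heterozygotes (adjusted p = 0.000541). Both calls held in all 21 alternatives.

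*Trim55*, a sarcomeric ubiquitin ligase of the M-band, fell from 123, 125 and 131 in controls to 94.6, 108 and 101 in homozygotes, with a log2 fold change of -0.32 against controls (limma adjusted p = 0.00511) and -0.38 against heterozygotes (adjusted p = 0.00199). It too was called in all 21 alternatives in both comparisons. Its relative *Trim63* (MuRF1) rose, with a log2 fold change of 0.28 against controls (adjusted p = 0.0138), and had 0.18 against heterozygotes (adjusted p = 0.0922). The remaining relative, *Trim54*, had values of 4.91 to 6.85 in homozygotes and 9.07 to 12.9 in heterozygotes, and fell by 0.82 on the log2 scale (adjusted p = 0.0123). Against controls, which had 6.81 to 9.58, it overlapped and had -0.49 (adjusted p = 0.0927). *Trim63* missed the threshold without control replicate 1 (adjusted p = 0.0518), control replicate 3 (0.0566) or homozygote replicate 2 (0.0502), and *Trim54* without heterozygote replicate 2 (0.0571) or homozygote replicate 3 (0.0525).

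*Mylk3*, the cardiac kinase of the regulatory light chain, fell by 0.24 on the log2 scale against controls (limma adjusted p = 0.0488) and by 0.30 against heterozygotes (adjusted p = 0.0191). *Ppp1r12b*, a targeting subunit of myosin phosphatase, fell by 0.42 (adjusted p = 0.0255) and by 0.45 (adjusted p = 0.0197). The other measured subunits of the phosphatase, *Ppp1cb*, *Ppp1r12a* and *Ppp1r12c*, and the kinase *Mylk* overlapped between the groups and were not called, with log2 fold changes of -0.07 to 0.17 against controls and -0.08 to 0.19 against heterozygotes. *Mybpc1*, a myosin-binding protein C of slow skeletal muscle, fell by 0.61 against controls (adjusted p = 0.0239) from a low level of 10.7 to 14.03, whereas the cardiac form *Mybpc3* had 889, 1047 and 1067 in controls and 943, 1095 and 897 in homozygotes. *Smyd1*, a methyltransferase of muscle that binds myosin, fell by 0.19 against heterozygotes (adjusted p = 0.0461) and had -0.08 against controls (adjusted p = 0.408). Against heterozygotes *Mybpc1* had -0.30 (adjusted p = 0.268). The call for *Mylk3* against controls held in 7 and that for *Smyd1* in 8 of 21 alternatives, and without homozygote replicate 3 they had adjusted p-values of 0.187 and 0.148. With 1 library left out, the former held only without control replicate 1 or homozygote replicate 2, and the latter only without heterozygote replicate 1 or homozygote replicate 2. Against heterozygotes *Mylk3* was not called without heterozygote replicate 1 (0.0579), heterozygote replicate 3 (0.0685) or homozygote replicate 3 (0.0773). *Ppp1r12b* was not called against controls without control replicate 1 (0.0514), control replicate 3 (0.0959) or homozygote replicate 3 (-0.28, adjusted p = 0.0914), and with the coding length trend removed it had -0.21 (0.184). Against heterozygotes it was not called without heterozygote replicate 2 (0.0574), heterozygote replicate 3 (0.0855) or homozygote replicate 3 (0.0713). *Mybpc1* was not called without control replicate 1 or 2 or homozygote replicate 2 or 3 (0.0602 to 0.0916).

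**Figure D5:**
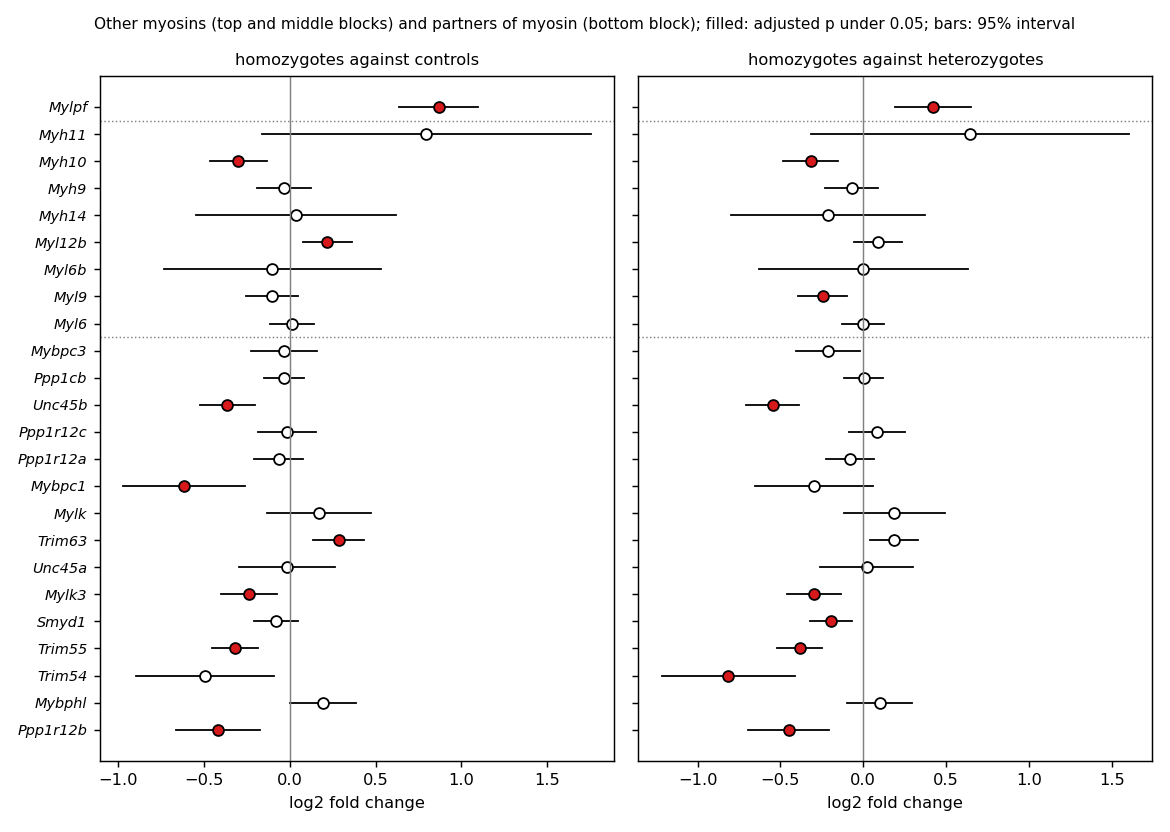
Log2 fold change with 95% interval of Mylpf (top), the 8 measured smooth and non-muscle myosin chains (middle) and the 15 measured partners of myosin (bottom) in homozygotes against controls and against heterozygotes; filled points had a limma adjusted p under 0.05. Mylpf lies at 0.87 and 0.42, and Unc45b and Trim55 lie below 0 in both panels.

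The gene whose pattern over the 9 libraries was most like each member was sought among the 9839 genes whose values averaged 10 or more, by Pearson's r of log2 values, given as a description. All points share the libraries and their depth and length trend. *Myh6* was closest to *Col4a5* (r = 0.987), *Myh7* to *Antxr2* (0.959) and *Myh7b* to *Fermt2* (0.9701). *Myl4* was closest to *Tnni3*, the cardiac troponin I (0.980), *Myl3* to *Commd5* (0.955), *Myl2* to *Apoo* (0.925), *Myl1* to *Arl4d* (0.917) and *Myl7* to *Dcaf8* (0.916). Within the set, *Myl3* and *Myl4* had r = 0.916 and *Myh6* and *Myh7* 0.871, whereas *Myh6* and *Myl3* had -0.549.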

How the data were processed

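RNA-seq was done by the authors on 9 libraries of pooled E10.5 hearts. Submitters' processing notes name CASAVA 1.8, cutadapt 1.6.1, Bowtie2 0.12.7, RSEM 1.20, limma and the build NCBIM37. The authors deposited 1 table of normalized signal values for 14011 genes. Signal values could be traced back to whole reads, offset by 0.5 and scaled to library size, for 100% of entries within a tolerance of 0.001.

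Columns named Het hold controls and those named DH heterozygotes. This was taken from the group means in the study's supplementary table, equal to the column means within 0.1% in 1998 of 1998 genes for controls and 787 of 787 for heterozygotes.

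Values were analyzed as log2(value + 0.5) with limma 3.58.1 in R 4.3.3, in one fit over 9 libraries that modeled the trend of variance with mean. P-values were adjusted by Benjamini-Hochberg over the whole table and a gene was called at an adjusted p under 0.05. Alternatives were other pseudocounts (0.1 and 2), a stricter filter and threshold, a fit of 2 groups only, quantile normalization, no trend, a replicate block, removal of the length trend (loess, span 0.3), leaving out each library, and edgeR 4.0.16, DESeq2 1.42.0 and voom on the recovered reads. The coding-length trend and the light to heavy ratio, with and without that trend, were added after the data were seen. The method was tested on simulated data.

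Genes named were all members, Ctcf, called genes of the lists of other myosins and of partners, the nearest gene to each member by correlation, and cell type markers, of which 1 erythroid marker is not reported here. Members and lists were chosen with earlier results of these data known. Gene models were GENCODE M1, and promoters were from RefSeq. Intervals cover the spread between pools.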

Additional observations from a re-analysis of the deposited data

How the results depend on the processing

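Of the results for single members, 461 alternative values kept direction and side of the threshold, 19 lost and 9 gained a call, and 15 changed sign. The number of members called in homozygotes against controls was 1. It was 0 at an adjusted p under 0.01, with only the groups compared, with quantile normalization, without the limma trend, with the coding length trend removed and with the replicate block, and 2 with the filter of at least 1 in all 9 libraries, DESeq2 and voom. Leaving out 1 library gave 0 to 2. In homozygotes against heterozygotes it was 2, and 0 at an adjusted p under 0.01 and without the limma trend, with 0 to 3 when 1 library was left out. With either length trend removed it was 3, *Myl7* being called as well. With 1 library left out, the spread of a lone pair of pools was taken to be like that of the other groups. Same-numbered libraries had correlations of -0.04 to 0.09 between their deviations, so the numbers give no pairing, and the replicate block left *Myl4* at an adjusted p of 0.081 against controls and kept *Myh6* and *Myh7* called against heterozygotes. Signs changed as follows. In homozygotes against controls the log2 fold change of *Myl7* was -0.20 with the exon-union length trend removed and -0.19 with the coding one, and that of *Myl1* and *Myl2* with the coding one -0.040 and -0.085. Against heterozygotes *Myl3* and *Myl4* had -0.011 and -0.0059 with it, and *Myl2* had 0.0098 with quantile normalization and -0.13 to 0.029 with 1 library left out, the sign changing without homozygote replicate 1. *Myh7b* in heterozygotes against controls, at 0.002, had -0.0037 with edgeR and DESeq2, -0.0074 with voom, and -0.068 to 0.077 with 1 library left out. The number of members called in heterozygotes against controls was 0 in all 22 alternatives, and the 9 ratio differences of paired chains moved by less than the pooled SD. The log2 ratio of light to heavy chains in homozygotes moved with the coding length trend removed, to 0.15 against controls and 0.35 against heterozygotes. The number of all genes called in homozygotes against controls, 2133, was 1196 without the limma trend, 1351 with the coding length trend removed and 1049 to 2084 with 1 library left out, and against heterozygotes, 1901, it was 1063 without the trend and 1023 to 1859. Reads per library were fewest for *Myh7b*, at 130 to 392, and the effect of depth was not tested.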

Other observations

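Markers of the chambers, in which the myosin chains differ, gave values beside the members. Of 7 ventricular markers, 5 fell in homozygotes against controls (*Hey2*, *Irx4*, *Hand1*, *Gja1* and *Cited1*) and 6 against heterozygotes (these and *Mycn*). Of all genes, 8.03% and 6.7% were called lower in these comparisons, and 7.19% and 6.87% higher. *Nppb* went the other way and was not called, at 0.21 against controls (limma adjusted p = 0.185) and 0.23 against heterozygotes (0.15). The summed value of the 7 was 386 to 417 in homozygotes, 551 to 630 in controls and 592 to 658 in heterozygotes. *Irx4*, a ventricular transcription factor, had a log2 fold change of -0.83 against controls (limma adjusted p = 5.4e-05), whereas the ventricular light chain *Myl2* had 0.08. Of 6 measured atrial markers, 2 fell against controls (*Gja5* and *Nppa*) and 3 against heterozygotes (these and *Tbx5*). The median log2 fold changes of the 6 were -0.21 and -0.44. *Nr2f1* and *Nr2f2* had -0.03 and 0.08 against controls and -0.03 and 0.02 against heterozygotes. Sums were 598 to 882 in homozygotes, 954 to 1159 in controls and 1108 to 1180 in heterozygotes. Most of each sum was *Nppa*, at 440 to 677 in homozygotes, 691 to 828 in controls and 791 to 863 in heterozygotes. The study's in situ hybridization placed the loss of *Nppa* in the left ventricle, so *Nppa* did not mark atria alone. Of the epicardial markers, 3 of 5 rose in homozygotes against controls and 3 of 5 against heterozygotes, with sums of 496 to 565 in homozygotes, 372 to 429 in controls and 390 to 420 in heterozygotes. The sums of the smooth muscle markers were 1829 to 1854 in homozygotes, 1947 to 2134 in controls and 2089 to 2229 in heterozygotes, with 3 of 4 lower against controls. Most of each sum was *Acta2*, at 1282 to 1589 over the 9 libraries, which was not called. Endothelial and endocardial, cushion and macrophage markers had 2, 1 and 1 called lower against controls and 1, 0 and 0 higher. The summed liver and endoderm markers had 0 called and ranged from 56.6 to 774 in controls, 4.84 to 13.8 in heterozygotes and 5.92 to 70.2 in homozygotes. Which cells carried these markers was not measured here, and the part of any cell type in the values of the myosin chains was not tested.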
